A study of Mus musculus with 25 samples.

Results

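Introns of 121 to 300 bases that are neither the first nor the last of their gene were followed through tumors of 4 mouse models given H3B-8800 or vehicle. The length was taken from the deposited intron table and the place in the gene from the order of its introns along the strand. The rule picked 14435 introns in 6112 genes, which is 8.84% of the 163315 introns with values and 11.1% of the 129610 internal ones. Their median length was 196 bases. Neither treatment nor reads entered the choice.

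The tumors, PyMT-M, AT3, 2208L and T11, arose in genetically engineered mice as models of triple-negative breast cancer and were transplanted into the mammary gland of females that were 4 to 5 weeks old. Mice were randomized and received H3B-8800 or vehicle each day before the whole tumor was taken, after which strand-specific libraries were made from its polyadenylated RNA. The groups were PyMT-M in C57BL/6 mice with 4 H3B-8800 and 4 vehicle libraries, AT3 in C57BL/6 mice with 2 and 3, 2208L in Balb/c mice with 3 and 3, and T11 in Balb/c mice with 3 and 3, or 25 libraries in all. By the labels, the responders are PyMT-M and 2208L and the nonresponders AT3 and T11, and the design text gives 3 or 4 tumors for each condition. All groups of a model shared the tumor line and the host strain, while dose, number of days and driver alleles are not given there.

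An intron is removed by the spliceosome, which reads the donor site at its start, the branch point shortly before its end and the acceptor site at its end. The branch point is held by the U2 snRNP, whose SF3B complex contains SF3B1. H3B-8800 is a small molecule that binds the SF3B complex and modulates its function at the branch point. An intron that stays in the RNA usually brings a stop codon into the reading frame, and such RNA can be kept in the nucleus or destroyed by nonsense-mediated decay.

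Some of these introns are shown first, because the results below turn on them. The first 4 held more reads with H3B-8800 in PyMT-M, AT3 and 2208L, the next 2 held fewer in PyMT-M and 2208L, and the last differed by less than 1 percentage point in each of these 3 models. Each is printed 5′ to 3′ on the strand of its gene, from GENCODE M21 transcripts that run through it, on mm10. Capitals mark the first 6 bases with the donor site, any CTNAC (a branch-point-like motif) searched on the strand of the gene within the last 60 bases, and the AG that ends the intron.
Ppan intron 3, chr9:20889440-20889633, + strand: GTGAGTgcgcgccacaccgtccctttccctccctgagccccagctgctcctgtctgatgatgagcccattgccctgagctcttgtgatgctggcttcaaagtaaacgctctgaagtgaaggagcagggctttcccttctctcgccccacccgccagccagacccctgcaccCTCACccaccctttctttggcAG
Aurkb intron 4, chr11:69048366-69048505, + strand: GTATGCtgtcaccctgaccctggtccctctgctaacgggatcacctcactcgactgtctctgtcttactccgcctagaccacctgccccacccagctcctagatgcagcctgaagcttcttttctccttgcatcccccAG
Fance intron 6, chr17:28318157-28318328, + strand: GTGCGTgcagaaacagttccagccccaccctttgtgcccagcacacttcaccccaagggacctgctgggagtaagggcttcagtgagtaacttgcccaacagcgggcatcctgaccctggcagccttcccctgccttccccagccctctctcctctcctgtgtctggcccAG
Usf1 intron 5, chr1:171417330-171417472, + strand: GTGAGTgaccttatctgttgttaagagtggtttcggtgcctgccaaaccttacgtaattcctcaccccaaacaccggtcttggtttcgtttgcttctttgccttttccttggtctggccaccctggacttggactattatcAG
Hnrnpdl intron 6, chr5:100036196-100036480, − strand: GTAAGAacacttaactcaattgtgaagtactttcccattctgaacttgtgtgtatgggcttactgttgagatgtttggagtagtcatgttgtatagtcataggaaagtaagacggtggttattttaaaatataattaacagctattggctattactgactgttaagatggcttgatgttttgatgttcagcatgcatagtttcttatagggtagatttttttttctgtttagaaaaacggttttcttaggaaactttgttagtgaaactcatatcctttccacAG
Cnot10 intron 16, chr9:114597607-114597794, − strand: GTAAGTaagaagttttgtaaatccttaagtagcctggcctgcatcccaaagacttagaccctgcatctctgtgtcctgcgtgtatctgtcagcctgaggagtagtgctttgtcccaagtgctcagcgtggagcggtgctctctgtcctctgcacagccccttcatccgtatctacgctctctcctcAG
Fth1 intron 2, chr19:9984328-9984559, + strand: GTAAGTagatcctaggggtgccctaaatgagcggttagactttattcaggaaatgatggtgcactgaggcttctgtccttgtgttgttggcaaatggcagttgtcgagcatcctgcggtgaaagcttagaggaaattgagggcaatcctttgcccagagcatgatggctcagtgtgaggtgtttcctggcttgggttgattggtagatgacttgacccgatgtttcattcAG

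All 7 lie between coding exons and open with GT. Among them only the intron of Ppan holds CTNAC near the end, and it also holds an annotated snoRNA, Gm24067. Sequence could be read for 1738 of the 14435 introns, those inside an annotated exon, most often an exon of a transcript of the retained-intron kind. Of these, 98.9% began with GT and 0.978% with GC, 99.9% ended in AG, and the median GC content was 53.6%. CTNAC stood in the last 60 bases of 33.3% of them and of 33.3% of the 2167 introns of the same lengths at any place in a gene. No match says only that these letters are not in this window.

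Reads inside an intron and reads that overlap it were counted by the authors for every library, and the percent inside is the first count over the second. It takes no account of length, so it cannot be read as the share of RNA molecules with the intron. Libraries held 10863779 to 22377777 overlapping reads over all introns, and the introns of 121 to 300 bases held 1127792 to 2403402 of these, 15859 to 227042 of them inside. In 923 of the 14435 introns no library had a read. The epithelial markers Epcam, Krt8, Krt18 and Cdh1 summed to 2931 to 5141 CPM in PyMT-M with H3B-8800 and 3635 to 6885 with vehicle, and to 3514 to 4474 and 3301 to 4423 in 2208L. In AT3 the sum was 228 to 417 CPM with H3B-8800 and 179 to 223 with vehicle, so the epithelial signal of that breast tumor was low, as it was in T11 at 156 to 167 in libraries labelled H3B-8800 and 100.3 to 225 in those labelled vehicle. In whole tumors, fewer cells of a type and less RNA per cell cannot be told apart. The 5 skeletal muscle markers summed to 264 and 178 CPM in PyMT-M H3B-8800 libraries 1 and 2, 3293 in 2208L vehicle library 1, and 560 and 4704 in T11 libraries labelled H3B-8800 2 and vehicle 3, against 1.58 to 30.9 in the other 20. The 4 B cell markers summed to 141 CPM in the T11 library labelled H3B-8800 2 and 58.1 in AT3 vehicle library 2, against 0.292 to 3.15 in the other 23. Leading counts are therefore also given without these 6 libraries, an alternative chosen after the data were seen.

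In T11 the libraries went against the direction of the other 3 models: those labelled vehicle held more reads in introns than those labelled H3B-8800. Results are given for T11 by label, beside results over the other 3 models. Whether its labels are as they should be was not tested.

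Pooled over all 14435 introns, the share of reads inside was higher with H3B-8800 in PyMT-M, AT3 and 2208L, and most so in PyMT-M. In PyMT-M it was 13.2%, 12.8%, 8.42% and 11.1% in H3B-8800 tumors, against 4.17%, 2.17%, 3.70% and 4.17% in vehicle tumors. The groups did not overlap, and the means of 11.4% ± 2.18 with H3B-8800 and 3.55% ± 0.949 with vehicle (SD, n = 4 each) differed by 7.83 percentage points (exact permutation test, two-sided, p = 0.0286, the smallest that 4 against 4 libraries allow). Without the muscle-bearing H3B-8800 libraries 1 and 2 the difference was 6.21 points, at the smallest p then possible, 0.0667 (exact).

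In AT3 the share was 5.68% and 7.29% in H3B-8800 tumors, against 2.18%, 4.40% and 2.38% in vehicle tumors. No AT3 library overlapped the other group, and the difference of 3.50 points had p = 0.2 by the exact test, which cannot go below 0.1 with 2 against 3. In 2208L it was 4.57%, 3.75% and 4.21% in H3B-8800 tumors, against 1.38%, 2.21% and 2.11% in vehicle tumors. The lowest H3B-8800 library of 2208L stood above the highest vehicle library, with a difference of 2.28 points and p = 0.1, the smallest that an exact test of 3 against 3 can give.

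Over these 3 models, with libraries permuted within each model, the mean was 7.35% with H3B-8800 and 2.81% with vehicle, a difference of 4.54 points (exact permutation test, p = 0.000143). With T11 added by label the difference was 2.79 points (exact, p = 0.00477). In T11 the libraries labelled H3B-8800 had 1.84%, 2.01% and 2.20% inside, against 3.08%, 6.13% and 4.15% in those labelled vehicle. All 3 labelled H3B-8800 were below all 3 labelled vehicle, by 2.44 points in the mean (exact, p = 0.1, the smallest possible).

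**Figure D1:**
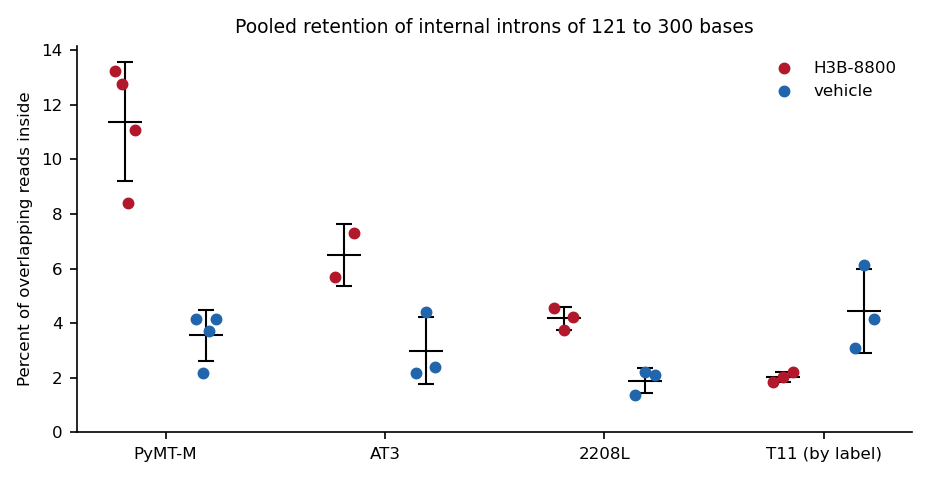
Percent of overlapping reads that lay inside internal introns of 121 to 300 bases, pooled per library, by model, with H3B-8800 left of vehicle. Points are libraries, horizontal lines means and bars 1 SD. H3B-8800 tumors of PyMT-M lie between 8.42% and 13.2% and vehicle tumors at 4.17% or below, and T11 shows the opposite order by its labels.

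The shift was set beside that of other internal introns on the log2 odds scale, the log2 of reads inside over spliced reads. Spliced reads are here the overlapping reads that were not inside. Reads across an exon-intron edge may be counted among them, to a degree that was not tested in any length class. On this scale introns of 121 to 300 bases moved by 1.83 in PyMT-M, 1.23 in AT3 and 1.2 in 2208L. Introns of up to 120 bases moved by 2.22, 1.38 and 1.33 in the same models, and introns of 301 to 1000 bases by 1.57, 0.98 and 1.07. The shift was smaller at every longer class in PyMT-M and 2208L, down to −0.07 and 0.06 for introns of over 10000 bases, and in AT3 down to 0.52. The value of −0.07 is uncertain, because the PyMT-M vehicle libraries spread widely there. They held 38.4% to 74.6% inside, with a mean of 50.3% ± 16.9 (SD), against 49.5% ± 5.21 with H3B-8800.

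The difference between neighbouring classes was tested itself, per library. Introns of 121 to 300 bases moved by 0.21 log2 units more than those of 301 to 1000 over the 3 models (exact permutation test, p = 7.14e-05, the smallest possible), and the gap was 0.26 in PyMT-M, 0.25 in AT3 and 0.12 in 2208L. They moved by 0.22 less than introns of up to 120 bases (value −0.22, exact, p = 0.000214), with −0.39 in PyMT-M, −0.15 in AT3 and −0.13 in 2208L. In T11 by label both gaps had the other sign, −0.33 and 0.28, as the shift itself did. With T11 in the test by its labels the gaps were 0.08 (exact, p = 0.251) and −0.10 (exact, p = 0.122).

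The percent itself ran the other way with length. Introns of 301 to 1000 bases held 16% ± 4.10 inside with H3B-8800, against 6.07% ± 1.72 with vehicle, in PyMT-M (SD, n = 4 each), and introns of up to 120 bases 9.77% ± 1.10 and 2.34% ± 0.614. Longer introns collect more reads for the same number of RNA molecules, so levels of classes were not compared further. In the 5040 genes that hold both an intron of 121 to 300 bases and one of 301 to 1000, the shorter moved more by 0.39 log2 units in PyMT-M, 0.25 in AT3 and 0.20 in 2208L, and by −0.29 in T11 by label.

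**Figure D2:**
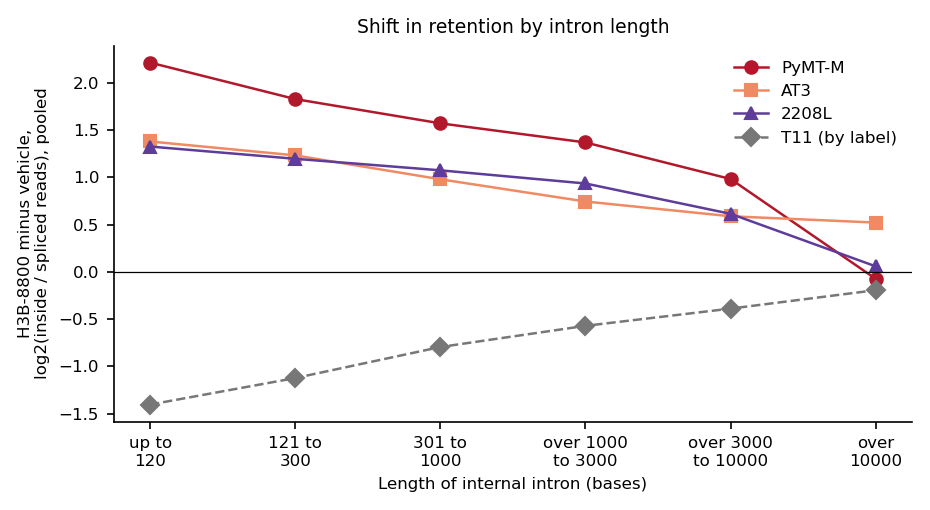
Difference in log2 odds (reads inside over spliced reads, pooled per library), H3B-8800 minus vehicle, by length class of internal introns in bases, 1 line per model. Introns of 121 to 300 bases lie at 1.83 in PyMT-M, 1.23 in AT3 and 1.2 in 2208L, between the shorter and the longer class, and T11 by label is a mirror image below 0.

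Values at the limits of the rule are given for PyMT-M. Introns of 121 to 130 bases (n = 1238), just inside, held 9.62% with H3B-8800, against 1.82% with vehicle, and those of 111 to 120 (n = 1478), just outside, 10.3% and 2.09%. At the upper limit the 598 introns of 291 to 300 bases held 12.5% with H3B-8800 and 3.86% with vehicle, and the 618 introns of 301 to 310 bases 14.8% and 4.71%. Within the class, the 3279 introns of 121 to 150 bases held 10.5% and 2.43% in PyMT-M and the 3155 introns of 251 to 300 bases 14.7% and 5.05%, with H3B-8800 first.

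Intron by intron, most were little retained in vehicle tumors and a broad set was retained with H3B-8800. In PyMT-M, 6095 introns had at least 20 overlapping reads in every library, and their median percent inside was 10.8% with H3B-8800 and 1.77% with vehicle. Of these, 88.8% were higher with H3B-8800. Over 10% of the reads lay inside in 52.1% of them with H3B-8800 and 15.7% with vehicle, and over 50% of the reads in 596 and 64 introns. The libraries of the groups did not overlap in 3436 introns that were higher with H3B-8800, or 56.4% against 44.5% of the 67697 introns of any length or place with this coverage, and in 41 that were lower, or 0.673% against 2.04%.

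The same held to a lesser degree in AT3, where 5157 introns had this coverage and the median was 5.72% with H3B-8800 and 1.77% with vehicle. In 2208L, with 5404 introns, the medians were 2.65% and 0.741%. Higher values with H3B-8800 were seen in 78.7% of AT3 and 74.0% of 2208L introns. In T11, 14.9% of 5285 introns were higher in libraries labelled H3B-8800, with medians of 1.13% labelled H3B-8800 and 3.19% labelled vehicle. Of 4015 introns with the coverage in all libraries of PyMT-M, AT3 and 2208L, 2670 were higher with H3B-8800 in all 3 and 57 lower in all 3, and the largest of the 3 differences fell in PyMT-M for 3109, in AT3 for 652 and in 2208L for 254.

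**Figure D3:**
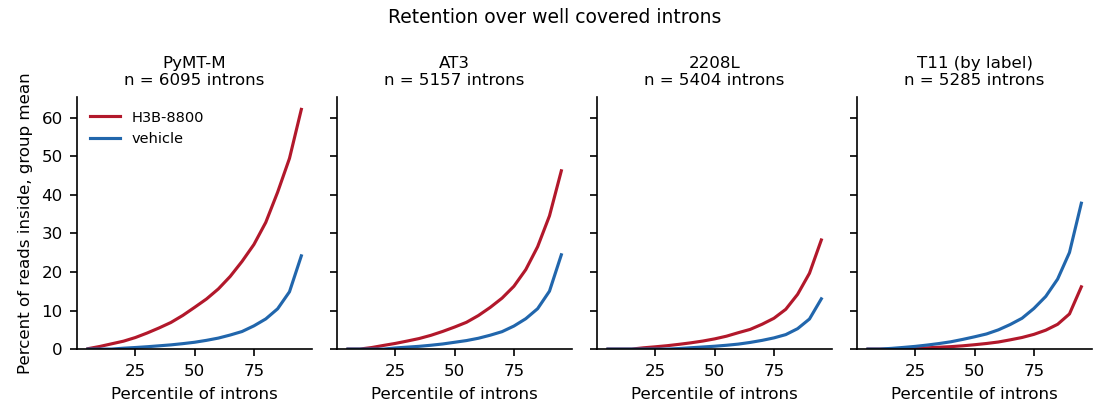
Group mean of the percent of reads inside at each percentile of introns with at least 20 overlapping reads in every library of the model, H3B-8800 in red and vehicle in blue. In PyMT-M the 50th percentile is 10.8% with H3B-8800 and 1.77% with vehicle, and the curves of T11 by label lie in the other order.

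For a test of single introns, a mean of at least 5 reads inside and 10 spliced reads was asked for, which 3290 of the 14435 introns in 1884 genes met, and 52042 of all introns. Of the others, 5998 had enough spliced reads but too few inside, and 5147 too few spliced reads. An intron with few reads in vehicle tumors could pass this filter through its reads with H3B-8800, so counts among the 3290 describe the tested introns and not the whole class. Reads inside were modelled against all reads of the same gene counted as spliced, so a change is one beyond any change of those reads. The test was edgeR quasi-likelihood with Benjamini-Hochberg adjustment over the 52042 introns, at a threshold of 0.05. The p-values measure the spread between these libraries.

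In PyMT-M, 2441 of 3290 introns in 1470 genes were higher with H3B-8800, or 74.2%, where 54.6% of all tested introns were. Lower were 29, or 0.881%, against 5.64% of all tested introns. The median log2 change was 2.47 for introns of 121 to 300 bases and 1.57 for all tested introns. Without vehicle library 4 these medians were 2.49 and 1.79, so the gap between them was smaller. With the offset scaled by TMM the medians were 2.19 and 1.27, a shift of all tested introns, while 2237 were higher and 45 lower. Without the 6 libraries with muscle or B cell markers 1963 were higher and 24 lower, and without H3B-8800 library 3 alone 18 were lower.

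In AT3, 848 introns were higher, or 25.8% against 19.6% of all tested introns, with a median log2 change of 1.53 against 1.10. The larger share of the class depended on the filter. With no filter on means, 652 of 11405 introns of the class were called in AT3, against 9222 of all 131838, a larger share. The median log2 change was then 0.88 in the class and 0.63 over all. No intron was lower in AT3 by edgeR, where 0.315% of all tested introns were, nor by DESeq2, and 5 had an unadjusted edgeR p under 0.05 in that direction. The AT3 count rested on single libraries, with 157 higher without H3B-8800 library 2, 337 without vehicle library 1, 419 without vehicle library 3 and 490 in a fit on AT3 libraries alone.

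In 2208L, 927 introns were higher, or 28.2% against 21.1%, and 9 lower, or 0.274% against 0.526%, with a median of 1.59 against 1.07. With no filter on means, 676 of 11405 introns of the class were higher in 2208L and 4 lower. Of all 131838 introns 9626 were then called, again a larger share than in the class. Without the 6 libraries the counts were 675 higher in AT3 and 201 higher and 4 lower in 2208L. The 2208L counts were 406 higher without vehicle library 1, 577 higher and 4 lower without H3B-8800 library 1, and 5 lower without H3B-8800 library 3. In T11, 2 introns were higher in libraries labelled H3B-8800, or 0.0608% against 0.757%, and 1009 lower, or 30.7% against 19.8%, with a median of −1.52 against −0.84. The T11 count of lower introns was 325 without the 6 libraries, 488 without the library labelled vehicle 2, and 606 and 579 without those labelled H3B-8800 1 and 2.

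Tested alike in all 3 other models, 502 introns in 415 genes were higher with H3B-8800 in PyMT-M, AT3 and 2208L, or 15.3% against 10.8% of all tested introns, and by edgeR or DESeq2 none was lower in all 3. Without the 6 libraries the count was 120, in 111 genes, and with the replicate number as a block 143. Without AT3 H3B-8800 library 2 it was 105, without AT3 vehicle library 1 or 3 it was 231 or 273, and without 2208L vehicle library 1 or H3B-8800 library 1 it was 266 or 321. Of the 502, 285 touch no annotated exon. All 502 had a lower value in T11 libraries labelled H3B-8800 than in those labelled vehicle, and 378 passed the test in that direction. Of the introns higher in PyMT-M, 833 were higher in AT3, which is 34.1% of those in PyMT-M and 98.2% of those in AT3, and 903 were higher in 2208L, which is 37.0% and 97.4%.

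The introns with the largest rise over the 3 models belonged to genes of several kinds. Among introns that passed the test and whose groups did not overlap in all 3 models, the 12 with the largest mean difference, 1 per gene, lay in BC037034, Ppan, Hipk3, Rhbdf2, Bcl3, Aurkb, Fance, Nop56, Usf1, Plekhm2, Arhgef2 and Rexo1. Groups apart and a small adjusted p in these 3 models were thus set by the choice. The values below describe the chosen introns and are no further test. In this set 3 genes act in RNA and ribosome making: Ppan in ribosome biogenesis, Nop56 in the core of box C/D snoRNPs, and Rexo1 as a member of an RNA exonuclease family. Others signal or control transcription, among them the kinase gene Hipk3, the NF-κB coregulator gene Bcl3, the transcription factor gene Usf1, and Arhgef2, which encodes an exchange factor for RhoA. Rhbdf2 encodes a protein that guides the maturation of ADAM17, and Plekhm2 links lysosomes to kinesin.

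Intron 3 of Ppan, printed above, held 87.0%, 80.1%, 93.9% and 92.2% of reads inside in PyMT-M with H3B-8800, against 21.2%, 9.09%, 23.3% and 7.69% with vehicle. Ppan thus had most of its reads inside in every treated PyMT-M tumor and few in every vehicle tumor (log2 change 4.18, SE 0.46, adjusted p = 8.62e-09). It held 77.6% and 67.9% in AT3 with H3B-8800, against 25.7%, 25.9% and 18.5% with vehicle, and 66.4%, 71.5% and 73.9% in 2208L with H3B-8800, against 3.23%, 13.6% and 8.11% with vehicle. The groups were apart in both, as the choice required (log2 change 2.25, SE 0.51, adjusted p = 0.00241, and 4.09, SE 0.55, adjusted p = 9.66e-06). In T11 the Ppan intron held 19.9%, 28.2% and 19.7% in libraries labelled H3B-8800, against 67.1%, 82.6% and 84.8% in those labelled vehicle.

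Aurkb encodes Aurora kinase B, which acts in chromosome segregation, and its intron 4 of 140 bases held 74.5%, 77.3%, 83.3% and 74.7% inside in PyMT-M with H3B-8800, against 14.9%, 5.26%, 17.1% and 12.2% with vehicle. No treated PyMT-M tumor came near a vehicle tumor (log2 change 4.42, SE 0.61, adjusted p = 3.54e-07). In 2208L it held 71.4%, 71.1% and 66.0% with H3B-8800, against 5.26%, 13.9% and 12.9% with vehicle (log2 change 4.03, SE 0.67), and in AT3 47.4% and 67.2%, against 11.5%, 24.2% and 8.57% (2.81, SE 0.66).

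Fance encodes a subunit of the Fanconi anemia core complex, which acts in the repair of DNA crosslinks. Its intron 6 held 89.3%, 89.0%, 76.8% and 84.4% in PyMT-M with H3B-8800, against 18.8%, 10.9%, 9.52% and 14.6% with vehicle (log2 change 4.46, SE 0.55, adjusted p = 5.17e-08). All Fance values with H3B-8800 lay far above those with vehicle. In 2208L it held 70.5%, 75.9% and 47.4% with H3B-8800, against 16%, 9.09% and 9.09% with vehicle, and AT3 had 44.8% and 61.7%, against 19.3%, 13.2% and 12.8%.

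Intron 5 of Usf1 held 88.0%, 81.2%, 86.0% and 83.5% in PyMT-M with H3B-8800, against 19.8%, 9.65%, 20% and 11.8% with vehicle (log2 change 3.94, SE 0.44, adjusted p = 1.01e-08). These groups were apart as well, and AT3 vehicle library 2, which had B cell markers, held 38.6%, the most of the vehicle libraries of PyMT-M, AT3 and 2208L for Usf1. Nop56 intron 5, at chr2:130276175-130276435 with the snoRNA Gm24451 inside, held 91.2%, 75.6%, 88.7% and 82.1% in PyMT-M with H3B-8800, against 3.94%, 4.82%, 9.86% and 17% with vehicle (log2 change 5.29, SE 0.54, adjusted p = 2.18e-09). Its values in 2208L were lower, 45.2%, 34.2% and 47.8% with H3B-8800, against 3.05%, 9.13% and 10.1% with vehicle. Bcl3 intron 7 held 93.2%, 92.3%, 93.3% and 91.6% with H3B-8800, against 25.2%, 30.5%, 32.3% and 33.3% with vehicle, with a spread of under 2 points in treated tumors.

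**Figure D4:**
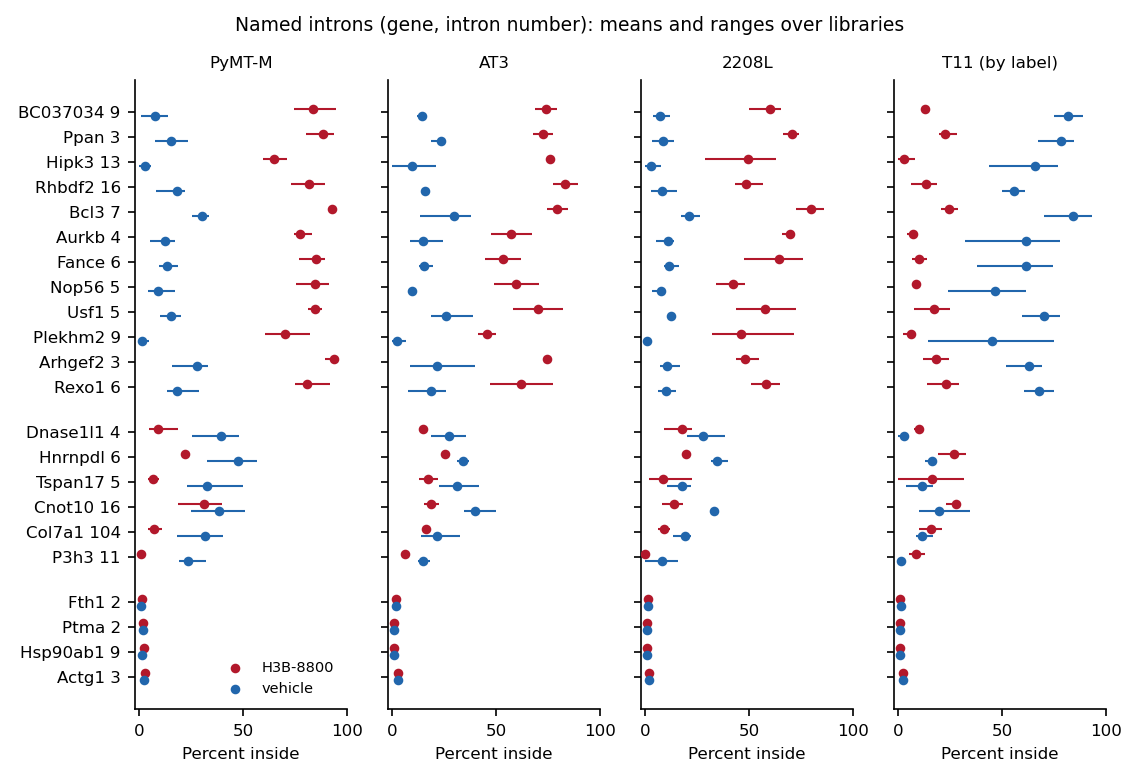
Percent of overlapping reads inside each named intron (gene and intron number), by model, with H3B-8800 above vehicle. Points are group means and bars the range over libraries, the upper block shows introns that rose in PyMT-M, AT3 and 2208L, the middle block those that fell in PyMT-M, and the lower block the 4 most read introns that changed little. Ppan intron 3 has 80.1% to 93.9% with H3B-8800 in PyMT-M and 7.69% to 23.3% with vehicle.

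Few introns fell. Of the 29 that were lower in PyMT-M, in 28 genes, 20 touch an annotated exon, as 43.8% of the 3290 tested do. No intron was lower past the test in all 3 models, so those named were lower in PyMT-M by the test and in value in AT3 and 2208L, which 15 were. The 6 with the largest mean difference lay in Dnase1l1, Hnrnpdl, Tspan17, Cnot10, Col7a1 and P3h3. In 5 introns the fall passed the test in both PyMT-M and 2208L, those of P3h3, Hnrnpdl, Fxr2, Maged1 and Cnot10, of which Fxr2 and Maged1 are named after their values were seen.

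Hnrnpdl encodes an RNA-binding protein that controls splicing of its own RNA. Its intron 6 held 20.1%, 23.5%, 20.5% and 23% in PyMT-M with H3B-8800, against 56.7%, 32.6%, 55.5% and 45.7% with vehicle. Every treated tumor was below every vehicle tumor (log2 change −1.74, SE 0.35, adjusted p = 8.44e-05). In 2208L this Hnrnpdl intron held 17.7%, 21.8% and 19.7% with H3B-8800, against 31.8%, 31.5% and 40% with vehicle, again apart (−1.22, SE 0.41, adjusted p = 0.029), and in AT3 24.3% and 26.7%, against 31.1%, 36.6% and 34.7% (−0.45, adjusted p = 0.512).

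Cnot10 encodes a subunit of the CCR4-NOT complex, which shortens poly(A) tails. Its intron 16 held 29.0%, 37.0%, 18.8% and 40% in PyMT-M with H3B-8800, against 38.8%, 25%, 38.1% and 50.9% with vehicle, groups that overlapped (log2 change −1.35, SE 0.48, adjusted p = 0.0153). In 2208L the Cnot10 values were 15.6%, 8.16% and 18% with H3B-8800, against 31.6%, 33.3% and 34.8% with vehicle (−1.98, SE 0.61, adjusted p = 0.0178), and there they did not overlap.

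Dnase1l1 intron 4, in a gene of the DNase I family on the X chromosome, held 6.52%, 4.55%, 6.67% and 18.4% in PyMT-M with H3B-8800, against 47.9%, 25.5%, 36.4% and 46.8% with vehicle (log2 change −2.85, SE 0.68, adjusted p = 0.000616). The highest treated library stayed below the lowest vehicle library. P3h3, which encodes a collagen prolyl hydroxylase, had in intron 11 only 1 read inside over the 4 treated PyMT-M tumors, against 27 over the 4 vehicle tumors. Intron 104 of Col7a1, the gene of type VII collagen, held 7.55%, 4.08%, 4.63% and 10.9% with H3B-8800, against 37.9%, 30.8%, 17.9% and 40.4% with vehicle (−3.02, SE 0.63, adjusted p = 0.000123), without overlap. It is 1 of 10 tested introns of Col7a1, of which 3 were higher in PyMT-M.

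Some of the most read introns changed little in percentage points. Among 47 introns that passed no test and differed by less than 1 percentage point in each of PyMT-M, AT3 and 2208L, the 4 with the most reads lay in Fth1, Ptma, Hsp90ab1 and Actg1. Their levels were low, where a limit in points still allows a relative change. In this order their log2 changes in PyMT-M were 0.18 (SE 0.35), 0.26 (SE 0.39), 0.69 (SE 0.38) and 0.42 (SE 0.44). Reads of these genes can be shared with processed pseudogenes or paralogs, so their values are uncertain where reads were split. Fth1, the gene of ferritin heavy chain, held 1.34%, 0.932%, 0.806% and 1.09% in intron 2 in PyMT-M with H3B-8800, against 1.41%, 0.550%, 0.656% and 1.11% with vehicle. The groups overlapped, with 7321 to 17365 overlapping reads per library behind each value (log2 change 0.18, SE 0.35, adjusted p = 0.67).

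Introns of 1 gene could differ. In Hsp90ab1, a cytosolic chaperone gene, intron 9 held 1.86%, 1.85%, 2.05% and 2.20% in PyMT-M with H3B-8800, against 1.6%, 0.691%, 1.19% and 0.677% with vehicle (log2 change 0.69, SE 0.38, adjusted p = 0.115). Its intron 2 held 1.65%, 1.69%, 1.47% and 1.84% with H3B-8800, against 0.215%, 0.0506%, 0.203% and 0.128% with vehicle (3.60, SE 0.60, adjusted p = 5.4e-06). Neither intron of Hsp90ab1 had overlapping groups in PyMT-M, but the shift on the log2 scale was larger in intron 2; the difference between them was not tested.

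Across 351 genes with at least 3 tested introns of this class, the group mean with H3B-8800 in PyMT-M spanned 21.5 percentage points within a gene at the median. In 178 of these genes every tested one was higher, where 74.2% of all tested introns of the class were. Whether this is more genes than that share alone would give was not tested. The genes below are from those with the most tested introns and were picked after their values were seen. Usp21, a ubiquitin protease gene, had 7 of 7 higher, with means of 55.1% to 86.5% with H3B-8800 and 9.04% to 42.7% with vehicle. Kmt2b, a histone H3 lysine 4 methyltransferase gene, had 7 of 7, with 39.3% to 87.9% and 10.2% to 31.0%. Ganab, which trims glucose from glycoproteins in the endoplasmic reticulum, had 7 of 7 at a lower level, 8.43% to 20.3% with H3B-8800 and 0.355% to 5.27% with vehicle. Sec24c, of the COPII coat, had 8 of 9 higher, at 7.12% to 58.4% and 0.625% to 13%. Fewer were higher in other genes with many tested introns, with 5 of 8 in Zswim8 and 1 of 6 in Dgka.

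Introns of spliceosome genes were themselves among those retained. In the genes of the SF3B complex and U2 snRNP, which include the complex the drug binds, 10 of 12 tested introns were higher in PyMT-M, or 83.3%, with a median log2 change of 2.92. Over the whole class of 121 to 300 bases 74.2% were higher with a median of 2.47, and over all tested introns 54.6% with 1.57, and the gene lists that follow are read against these. Pooled over the 25 introns of the list, 9.73% ± 1.94 of reads lay inside with H3B-8800 and 1.77% ± 0.451 with vehicle (SD, n = 4 each). In AT3 4 of 12 were higher, or 33.3%, and in 2208L 3 of 12, or 25%. Of the class 25.8% were higher in AT3 and 28.2% in 2208L, and of all tested introns 19.6% and 21.1%. Without the 6 libraries the counts were 9, 2 and 1. Introns named below from a list were those with the smallest p in PyMT-M, so their separation there was favoured by the choice.

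U2af2 encodes the large subunit of the factor that reads the polypyrimidine tract, and its intron 3, at chr7:5067255-5067543, held 41.9%, 42.0%, 32.1% and 34.1% in PyMT-M with H3B-8800, against 4.56%, 1.85%, 3.88% and 4.76% with vehicle. No U2af2 value with H3B-8800 was near the vehicle range (log2 change 3.87, SE 0.52, adjusted p = 2.21e-07). Sf3b2, a subunit of the SF3B complex, had 73, 39, 24 and 24 reads inside intron 7 in PyMT-M with H3B-8800 and none with vehicle. The 743 overlapping reads of the vehicle tumors, with none inside, allow up to 0.404% for Sf3b2 (3 counts of the total over the group, counting error only), while the treated tumors held 22.1%, 13.8%, 9.34% and 10.5%.

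Other splicing lists moved to different degrees. Of the U1, U5 and tri-snRNP genes 11 of 16 introns were higher in PyMT-M, or 68.8%, with a median of 2.52, both near the class, and pooled values of 12.5% ± 2.11 with H3B-8800 and 3.30% ± 1.05 with vehicle. Of the SR proteins and splicing regulators 4 of 6 were higher, at 11.4% ± 1.80 and 6.17% ± 1.43. In 2208L their pooled percent was 3.04 with H3B-8800 and 3.23 with vehicle. By the test 2 of the 6 were higher there, or 33.3% against 28.2% of the class, and none lower, with a median of 0.80 against 1.59. In PyMT-M the hnRNP genes, which bind nascent RNA and regulate splicing, had 10 of 20 higher, or 50%, and 2 lower. Their median was 1.61, below the 2.47 of the class and near the 1.57 of all tested introns. Clk3, whose kinase phosphorylates SR proteins, held in intron 11 61.8%, 52.5%, 52.2% and 53.9% in PyMT-M with H3B-8800, against 7.29%, 2.41%, 10.4% and 3.48% with vehicle, with wide separation.

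The translation initiation and elongation, aminoacyl-tRNA synthetase and proteasome lists had medians above the 2.47 of the class in PyMT-M. In the translation initiation and elongation list 32 of 38 were higher, or 84.2% against 74.2% of the class, with a median log2 change of 3.07, and 8.88% ± 1.74 inside with H3B-8800, against 1.32% ± 0.423 with vehicle. The aminoacyl-tRNA synthetases, which load amino acids onto tRNAs, had 16 of 18 higher in PyMT-M, or 88.9%, with a median of 3.32. In AT3 7 were higher, or 38.9% against 25.8% of the class, and in 2208L 9, or 50% against 28.2%. Pooled in PyMT-M, 18.8% ± 1.83 lay inside with H3B-8800, against 2.84% ± 1.10 with vehicle. Intron 14 of Vars, the valine enzyme, held 57.6%, 56.1%, 70.3% and 62.8% with H3B-8800, against 3.60%, 2.33%, 7.14% and 0% with vehicle (log2 change 5.25, SE 0.58, adjusted p = 9.11e-09). Vars was below 8% in every vehicle tumor of PyMT-M. Proteasome genes had 22 of 25 higher, or 88.0% (median 3.22), with 10.8% ± 1.70 and 1.73% ± 0.524.

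Ribosomal protein genes had low retention and a count near that of the class. Of 52 tested introns 37 were higher in PyMT-M, or 71.2% against 74.2% of the class. In AT3 13 were higher, or 25% against 25.8%, and in 2208L 12, or 23.1% against 28.2%. The median log2 change in PyMT-M was 1.87, below the 2.47 of the class. Pooled, they had 3.43% ± 0.340 inside with H3B-8800, against 1.09% ± 0.187 with vehicle, in PyMT-M. Rpl13a intron 5, which holds Snord34, held 9.42%, 6.77%, 7.48% and 6.72% with H3B-8800, against 0.977%, 0.523%, 0.442% and 0.661% with vehicle (log2 change 3.62, SE 0.40, adjusted p = 7.16e-09), and its intron 4, with Snord33, held 9.02%, 8.96%, 8.74% and 8.96%, against 1.32%, 1.26%, 1.43% and 1.38%. Both Rpl13a introns had groups far apart. Chaperone genes had 19 of 28 higher, or 67.9%, at 2.95% ± 0.371 and 0.681% ± 0.260, with a median log2 change of 2.29. Lysosome and vacuolar ATPase genes had 13 of 17, or 76.5%, at 3.01% ± 0.431 and 0.837% ± 0.306, with a median of 2.25. Both medians were below the 2.47 of the class. In glycolysis 6 of 13 were higher in PyMT-M, or 46.2%, with a median log2 change of 0.97, below those of the class and of all tested introns.

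RNA decay and transcription lists followed. Nonsense-mediated decay genes had 6 of 6 tested introns higher in PyMT-M. In AT3 4 were higher, or 66.7% against 25.8% of the class, and in 2208L 1, or 16.7% against 28.2%. Pooled in PyMT-M, 15.2% ± 5.09 lay inside with H3B-8800, against 1.77% ± 0.687 with vehicle. Upf1, the helicase of that pathway, held 81.5%, 53.6%, 61.4% and 52.1% in intron 13 with H3B-8800, against 1.14%, 0%, 7.37% and 1.72% with vehicle (log2 change 5.61, SE 0.78, adjusted p = 3.38e-07). More of the overlapping reads lay inside this Upf1 intron than not inside in all treated PyMT-M tumors. RNA polymerase II and Mediator genes had 18 of 22 higher, or 81.8%, at 20.8% ± 2.65 and 4.77% ± 1.49, and Cdk9, a kinase that releases paused polymerase, held 77%, 74.2%, 76.6% and 75.6% in intron 5 with H3B-8800, against 13.8%, 10.3%, 12% and 14.4% with vehicle.

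Lists of cell division, death and metabolism also held introns that rose. Against 74.2% in the class, mitosis genes had 8 of 10 higher (18.4% ± 1.61 with H3B-8800, 2.46% ± 1.02 with vehicle), DNA replication genes 9 of 12 (8.18% ± 1.10, 2.13% ± 0.523), and DNA repair genes 4 of 11 with a median log2 change of 0.99 at a high level, 26.1% and 7.64%. Apoptosis, death receptor and p53 genes had 5 of 8 higher, oxidative phosphorylation genes 9 of 14, and sterol and fatty acid synthesis genes 11 of 14 with 19.3% ± 6.00 with H3B-8800 and 4.10% ± 1.25 with vehicle. Fasn, the fatty acid synthase gene, held 75%, 62.2%, 69.5% and 42.8% in intron 21 with H3B-8800, against 1.35% in 1 vehicle library of PyMT-M and no read inside in the other 3. In 2208L Fasn had 6, 10 and 8 reads inside with H3B-8800 and none with vehicle, where 139 overlapping reads allow up to 2.16%.

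The immune lists had high and low members. Interferon and RNA sensing genes had the highest pooled percent of the 21 lists with tested introns, 35.1% ± 1.82 with H3B-8800, against 8.15% ± 1.86 with vehicle, in PyMT-M, and 11 of 13 introns higher, or 84.6%. In AT3 it was 21.7% ± 1.77 with H3B-8800 (n = 2) and 8.66% ± 4.01 with vehicle (n = 3), and in 2208L 11.8% ± 2.18 and 5.11% ± 0.240 (n = 3 each). Past the test were 2 of 13 in AT3, or 15.4% against 25.8% of the class, and 4 in 2208L, or 30.8% against 28.2%. Irf3, a transcription factor gene of the interferon response, held 55.7%, 53.7%, 39.9% and 56.2% in intron 4 with H3B-8800, against 9.24%, 2.87%, 7.81% and 4.32% with vehicle, and all 4 treated tumors exceeded all 4 vehicle tumors. Antigen presentation genes had 13 of 16 higher, or 81.2%, at 4.62% ± 0.324 and 1.59% ± 0.365. The 3 T cell markers with values summed to 2.91 to 11.7 CPM with H3B-8800 and 2.05 to 4.57 with vehicle in PyMT-M, and their part in these lists was not tested. The 53 introns of skeletal muscle genes had none that passed the filter.

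**Figure D5:**
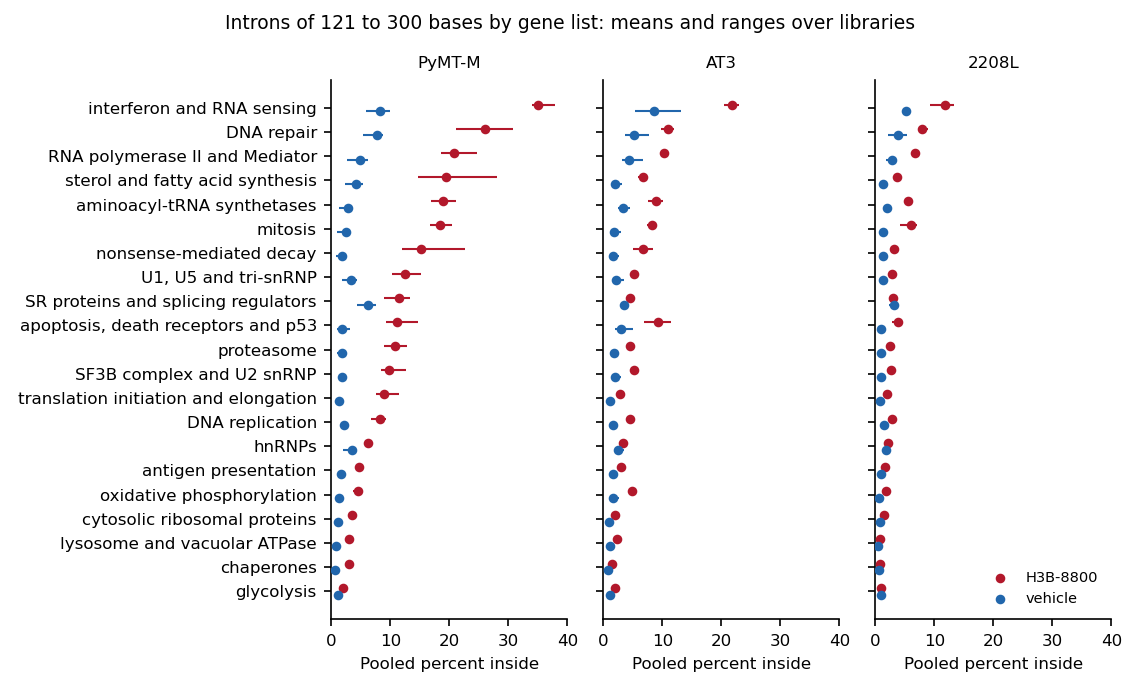
Percent of overlapping reads inside, pooled over the introns of 121 to 300 bases of each gene list, in PyMT-M, AT3 and 2208L, with H3B-8800 above vehicle. Points are group means and bars the range over libraries. Interferon and RNA sensing genes are highest (35.1% with H3B-8800, against 8.15% with vehicle, in PyMT-M) and with H3B-8800 in PyMT-M glycolysis genes lowest (2.00%).

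Level and shift varied with other features, and differences in shift between them were not tested. In PyMT-M, 1397 introns in second position held 7.57% with H3B-8800 and 2.13% with vehicle, 11486 in the middle 13.6% and 3.91%, and 1552 in the last place but one 8.95% and 3.55%. On the log2 odds scale these moved by 1.95, 2.00 and 1.39. Genes with few introns (3 to 8) had 7.53% and 2.68%, and those with 17 to 187 had 15.3% and 4.00%, with shifts of 1.57 and 2.17. These values were pooled over reads, so the most read introns weigh most, and the order of levels depended on this. By the mean of single introns, those in the last place but one were highest in both groups of PyMT-M, and those in second position lowest. By that mean, genes with 3 to 8 introns were slightly above those with 17 to 187 with H3B-8800, and also above them with vehicle. By spliced reads of the gene, the lowest of 3 equal groups of well covered introns held 25.3% and 8.81% and the highest 6.53% and 1.61%. Length in steps of 3 bases, which keeps the reading frame, made little difference, with 12.3% and 3.70% for multiples of 3, and 10.8% and 3.37% or 11.3% and 3.61% for the other remainders.

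GC content went with level among the introns that could be read. Of 3 groups by rank, the one with the least GC (n = 260) held 9.04% with H3B-8800, against 3.76% with vehicle, in PyMT-M, the middle one (n = 258) 14.6% and 4.35%, and the one with the most (n = 260) 24.0% and 9.51%. Introns with CTNAC near the end (n = 271) had 14.4% and 5.52%, and those without (n = 507) 14.2% and 4.91%. These introns lie in annotated exons, whose level is higher than that of the class: 14.2% with H3B-8800 and 5.48% with vehicle for the 2806 introns that touch an annotated exon, and 9.72% and 2.27% for the 11629 that touch none. Reads there may come from the other transcript, so the percent is not retention alone. Among tested introns, 78.2% of those without an annotated exon and 69.1% of those with one were higher in PyMT-M.

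Most introns of the class would change the protein if kept. By GENCODE M21, 14328, or 99.3%, lie between coding exons. Of the 1722 of these that could be read, 1558, or 90.5%, hold a stop codon in the frame of the exon before, at the median in codon 13 of the intron. The stop came in codon 12 in Ppan, 1 in Usf1, 4 in Hnrnpdl, 2 in Cnot10 and 5 in Fth1, while the introns of Aurkb and Fance held none in frame and, not being multiples of 3, would shift it. Of 164 introns without such a stop, 51 were a multiple of 3.

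Small RNAs lie in some of them. A snoRNA is annotated within 39 introns of 26 genes, 38 of them tested, and 28 were higher in PyMT-M, 15 in AT3 and 13 in 2208L. These are 73.7%, 39.5% and 34.2%, where 74.2%, 25.8% and 28.2% of the class were higher. Against 2.47, 1.53 and 1.59 in the class, the median log2 change of the introns with a snoRNA was lower, at 2.04, 0.85 and 0.89. Their pooled percent was 6.79 ± 0.973 with H3B-8800, against 1.71 ± 0.322 with vehicle, in PyMT-M, 3.30 ± 0.576 and 1.63 ± 0.628 in AT3, and 2.65 ± 0.244 and 1.45 ± 0.362 in 2208L. A snoRNA is cut from the intron after splicing, and reads of the snoRNA itself would count as inside. A miRNA is annotated within 24, of which 8 of 13 tested, or 61.5%, were higher and 1 lower in PyMT-M.

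Whether the models differed was tested as a difference of their drug effects. Between PyMT-M and AT3 no intron passed by edgeR, in either direction, where 0.00192% of all tested introns were higher and none lower; 312 had an unadjusted p under 0.05, 292 of them larger in PyMT-M, and DESeq2 called 18 of the class and 541 of all 51990 introns it tested. Between PyMT-M and 2208L none was larger in PyMT-M by edgeR (0.0865% of all tested introns, 369 at an unadjusted p under 0.05), and 1 was smaller (0.0307%), while DESeq2 called 49 larger and 2 smaller in PyMT-M, of 923 called over all introns. By median the effect was 0.81 log2 units larger in PyMT-M than in AT3, against 0.45 over all tested introns, and 0.73 larger than in 2208L, against 0.38. Without the 6 libraries the median difference from AT3 was 0.21, against −0.13 over all tested introns, and that from 2208L 0.73 against 0.38. A p that misses the threshold does not show that the models act alike.

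The intron that passed was intron 7 of Noxo1, at chr17:24699658-24699897, in the gene of an organizer of NADPH oxidase, and it was chosen for naming after its value was seen. It held 16.7%, 31.2%, 19.6% and 19.4% in PyMT-M with H3B-8800, against 67.3%, 53.9%, 64.9% and 61.8% with vehicle. In 2208L it held 31.4%, 40% and 32.7% with H3B-8800, against 15.8%, 11.4% and 20.5% with vehicle. The Noxo1 groups were thus apart in both models and in opposite order, and the difference of the changes was −3.49 (SE 0.76, adjusted p = 0.0456), from −2.16 in PyMT-M (adjusted p = 0.000328) and 1.33 in 2208L (adjusted p = 0.0929). AT3 and T11 had 5 overlapping reads or fewer per library there. The call for Noxo1 was lost without 15 of the 25 libraries taken singly, among them each H3B-8800 library of PyMT-M and each library of 2208L, with adjusted p between 0.0301 and 0.173 over all 25. It was also lost with the replicate number as a block (adjusted p = 0.0927) and without the 6 libraries (adjusted p = 0.363), while the difference stayed between −3.77 and −3.29 without any 1 library.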

How the data were processed

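The authors deposited 1 table per library with whole-number counts for each intron, the reads inside it and the reads overlapping it, for 1 transcript per gene. Reads were aligned with HISAT2 2.0.4 and the builds named are mm10 and hg38, per the submitters' processing notes; the tool that counted reads is not given in the sources used here. Coordinates matched mm10, and exon, coding and small RNA annotation came from GENCODE M21.

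From these counts, spliced reads were taken as overlapping minus inside. Reads across an exon-intron edge may be counted there. Introns with a mean of at least 5 reads inside and 10 spliced reads, in a gene with at least 1 CPM in at least 2 libraries, were fitted in edgeR 4.0.16 (R 4.3.3, robust quasi-likelihood, 8 group means, all 25 libraries) with an offset of the log of spliced reads per gene plus 0.5. The p-values were adjusted by Benjamini-Hochberg over 52042 introns, at a threshold of 0.05. Pooled percents were tested by exact permutation of libraries within a model, two-sided. DESeq2 1.42.0, other filters, offsets and libraries were alternatives. Python 3.11.15 with numpy 2.4.6, pandas 2.3.3 and matplotlib 3.10.9 was used, and the fit was tested on simulated data. Depth limits precision, and limits from a count of 0 cover counting error only.

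Introns were named among those with a mean of at least 20 overlapping reads in each group of PyMT-M, AT3 and 2208L: 12 risers, up to 6 fallers and 6 with little change, as described beside them, and up to 2 per gene list with the smallest p in PyMT-M. Some named introns are not reported here. The members and lists were chosen with earlier results of these data known.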

Additional observations from a re-analysis of the deposited data

Results flagged for a closer look

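Among 132 groups of 4 libraries, for the pooled percent and the named introns, 14 had 1 library that stood apart from the other 3. How many chance alone would flag cannot be told from these groups. In some of them the other 3 libraries had no read inside, so any read there sets a library apart. All are groups of PyMT-M, the model with 4 libraries per group.

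With H3B-8800, library 1, which carried muscle markers (264 CPM), stood above the others in intron 2 of Hnrnpa1 (9.47% inside, the others 7.14% to 7.28%), intron 6 of Adrm1 (68.4%, the others 57.8% to 59.6%), intron 7 of Tnfrsf1a (36.4%, the others 23.2% to 24.7%) and intron 11 of P3h3 (2.38%, the others at 0). Library 3 stood below the others in intron 3 of Actg1 (1.70%, the others 2.94% to 3.16%) and intron 4 of Irf3 (39.9%, the others 53.7% to 56.2%). Library 4 stood above in intron 4 of Dnase1l1 (18.4%, the others 4.55% to 6.67%).

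With vehicle, library 2 stood below the others in intron 16 of Rhbdf2 (8.20%, the others 20.4% to 21.8%) and intron 3 of Arhgef2 (15.9%, the others 30.2% to 32.8%). Library 4 stood above in intron 6 of Adrm1 (13.7%, the others 6.13% to 7.34%). A vehicle library had reads inside where the other 3 had none in 4 introns, with 4.44% in intron 9 of Plekhm2, 1.68% in intron 5 of Rfc2 and 1.35% in intron 21 of Fasn in library 1, and 2.13% in intron 3 of Slc2a1 in library 4.

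The pooled difference of T11 by its labels, −2.44 percentage points, had the opposite sign to that of PyMT-M (7.83), AT3 (3.50) and 2208L (2.28), with every library labelled H3B-8800 below every one labelled vehicle; the difference between T11 and the other models was not tested. The effect on intron 7 of Noxo1 differed between PyMT-M and 2208L by −3.49 on the log2 scale, a call that was lost without 15 of the 25 libraries taken singly.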

How the results depend on the processing

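Counts of called introns moved with the filter, the tool and single libraries. In PyMT-M the count was 2470 (higher and lower together), 4061 with no filter on means, 1462 with a stricter one and 4057 with a filter on spliced reads alone, an alternative chosen after the data were seen, as was leaving out the 6 libraries with muscle or B cell markers. Without those 6 the count was 205 in 2208L, 325 in T11 and 120 for introns higher in all 3 models, and the pooled difference in PyMT-M was 6.21 points (exact permutation p = 0.0667, the smallest possible). Fitted on AT3 libraries alone, AT3 had 490. With no filter 285 introns were higher in all 3 models. The share called with no filter was larger in the class than over all introns in PyMT-M (4061 of 11405, against 43030 of 131838). In AT3, 2208L and T11 it was smaller in the class.

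For PyMT-M minus AT3 DESeq2 called 18 introns and the fit with no filter 2. For PyMT-M minus 2208L DESeq2 called 51, no filter 8, the stricter filter 3, the intron's own overlapping reads as offset 3, and the fit without the 6 libraries 0. With T11 by label, the shift of the class minus that of introns of 301 to 1000 bases was 0.0759, and minus that of introns of up to 120 bases −0.0955. By the intron's own overlapping reads as offset the median log2 change in PyMT-M was 2.01, against 1.03 over all tested introns.

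Leaving out each library in turn gave 2231 to 2495 calls in PyMT-M, 157 to 954 in AT3, 414 to 997 in 2208L, 490 to 1178 in T11, 105 to 548 for introns higher in all 3 models, 0 to 8 for PyMT-M minus AT3 and 0 to 6 for PyMT-M minus 2208L. Pooled differences were 7.21 to 8.82 points in PyMT-M, 2.69 to 4.30 in AT3, 2.02 to 2.49 in 2208L, −3.12 to −1.60 in T11 by label and 4.27 to 4.86 over 3 models, and the 2 class differences 0.17 to 0.25 and −0.24 to −0.20. AT3 fell to 157 calls without H3B-8800 library 2, 337 without vehicle library 1 and 419 without vehicle library 3, where introns higher in all 3 models numbered 105, 231 and 273. 2208L had 414 without vehicle library 1 and 581 without H3B-8800 library 1, with 266 and 321 higher in all 3. T11 had 490 without the library labelled vehicle 2, and 607 and 580 without those labelled H3B-8800 1 and 2. PyMT-M minus AT3 had 8 without PyMT-M vehicle library 1, and PyMT-M minus 2208L 6 without vehicle library 4, 4 without vehicle library 1 and 3 without AT3 vehicle library 2. The cause was not tested.

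Whether replicate numbers pair the libraries could not be settled. Deviations from the group mean correlated at −0.05 to 0.11 for same-numbered libraries and at −0.11 to 0.10 for others, over 3788 introns. Such deviations cancel within a group, so with so few libraries the correlations are tied to each other and cannot exclude pairing by replicate number. With the number as a block, the counts were 2354 in PyMT-M, 215 in AT3, 718 in 2208L, 701 in T11, 143 higher in all 3 models and 0 for PyMT-M minus 2208L. Sign flips over pairs of the same number kept the PyMT-M difference of 7.83 points at p = 0.125 (exact), the smallest possible.

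For the named introns, 8733 of the values under alternatives kept direction and call, 211 lost the call, 43 gained one, 20 moved and none changed sign.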
